A study of Mus musculus with 5 samples.

Results

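BRG1 binding at the genes of the MAP kinase cascade and at the dual-specificity phosphatase (DUSP) genes is described here. The members were taken by symbol, as the protein-coding genes named Map4k, Map3k, Map2k, Mapk, Mapkapk or Dusp followed by a number. These were 70 of the 21887 protein-coding genes of chromosomes 1 to 19, X and Y in RefSeq on GRCm38.p6, the assembly of mm10. They comprise 5 MAP4K, 18 MAP3K, 7 MAP2K, 13 MAPK and 3 MAPKAPK genes and 24 DUSP genes. A BRG1 peak was counted for a gene when its summit lay in the gene body or within 20 kb of it. This gave 60 member peaks of 4668 in the oxLDL KO list, 101 of 9907 in oxLDL WT, 1 of 139 in KO and 2 of 237 in WT.

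The libraries came from primary macrophages grown from bone marrow. One group was of Baf60a knockout mice with oxidised low-density lipoprotein (oxLDL KO), another of wild-type mice with oxLDL (oxLDL WT), and the same genotypes without oxLDL are called KO and WT. Each group was 1 library, precipitated with an antibody against BRG1, so differences between lists have no replicate check and no test was run. The sources used here do not say how the knockout was made, how many mice of what age and sex were used, or the dose and time of oxLDL. BRG1 is the ATPase of SWI/SNF complexes, which move nucleosomes, and BAF60a is an accessory subunit of them. Of 12 macrophage marker genes, 9 had a peak by the same rule in oxLDL KO and 12 in oxLDL WT, against 1 in KO and 1 in WT. Of 12 markers of lymphocytes, hepatocytes, stromal cells and neurons, 2 had one in oxLDL KO (Cd79a and Ms4a1) and 1 in oxLDL WT (Ms4a1).

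MAP kinase cascades relay signals from receptors through kinases that phosphorylate each other in series. MAP4Ks and small GTPases act on MAP3Ks, these on MAP2Ks, and MAP2Ks phosphorylate the MAP kinases ERK, JNK and p38 on a threonine and a tyrosine. MAPKAP kinases are substrates of p38 and carry the signal to mRNA-binding proteins, among others. DUSPs remove the phosphates: the MAP kinase phosphatases (MKPs) have a docking domain for MAP kinases, and several are transcribed as early response genes, which closes a feedback loop. In macrophages these cascades carry signals from Toll-like and scavenger receptors to the production of cytokines.

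Under oxLDL, 32 of the 70 members had a BRG1 peak in oxLDL KO (45.7%, Wilson 95% interval 34.6 to 57.3) and 44 in oxLDL WT (62.9%, 51.1 to 73.2). Of all 21887 protein-coding genes, a peak was found at 21.1% in oxLDL KO and 33.2% in oxLDL WT. These intervals cover counting error only. The members were a little longer than other genes, with a median length of 21.2 kb against 17.2 kb, and a longer gene has more room for a summit. Of the 32 members under 20 kb, 43.8% had a peak in oxLDL KO and 62.5% in oxLDL WT, where all genes of that length had 15.9% and 26.7%. Of the 17 members of 20 to 60 kb, 47.1% had one in oxLDL KO and 58.8% in oxLDL WT, against 25.3% and 39.2% of all such genes. Of the 21 members over 60 kb, 47.6% had one in oxLDL KO and 66.7% in oxLDL WT, against 29.8% and 43.2%. The members' shares were thus above those of all genes in each length class. The classes are small, with 32, 17 and 21 members, and no intervals were computed for them. Counting error within a class is thus not excluded. Genes silent in macrophages are part of that comparison, and expression was not measured here.

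Fewer members had a peak in oxLDL KO than in oxLDL WT when all listed peaks were counted. The ratio of oxLDL KO to oxLDL WT was 0.727 for members with a peak and 0.635 for all genes with a peak. It was 0.594 for member peaks and 0.471 for all peaks. When the oxLDL WT list was shortened to the 4668 peaks with the highest −log10 p, the length of the oxLDL KO list, 32 members had a peak in oxLDL KO and 33 in oxLDL WT, where 20.2% of all genes had one in the shortened list. Member peaks then numbered 60 in oxLDL KO and 49 in oxLDL WT. The shortened list ends among 775 peaks tied at the same −log10 p, of which 249 were kept by genome position, so its counts are bounded by dropping or keeping all of them. With the ties dropped (4419 peaks), oxLDL WT had 32 members and 48 member peaks, against 19.5% of all genes. With the ties kept (5194 peaks), it had 36 members and 57 member peaks, against 21.8% of all genes. At a −log10 q of at least 5, 16 members had a peak in oxLDL KO and 29 in oxLDL WT, against 5.12% and 12.4% of all genes. The count of members was thus lower in oxLDL KO at a fixed q limit, while at equal list length the counts were 32 in oxLDL KO and 32 to 36 in oxLDL WT.

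Nearly all members with a peak in oxLDL KO also had one in oxLDL WT. The 31 members with a peak in both lists made up 96.9% of the 32 in oxLDL KO (interval 84.3 to 99.4) and 70.5% of the 44 in oxLDL WT (55.8 to 81.8). For all genes these shares were 83.2% and 52.8%, and 17.5% of all genes had a peak in both. Mapk9, which encodes the kinase JNK2, had a peak in oxLDL KO alone. A further 13 members had a peak in oxLDL WT alone, among them Map3k2, Map3k6, Map3k8, Map2k1, Map2k6, Mapk6, Dusp8, Dusp10, Dusp11, Dusp12, Dusp23 and Dusp28. Their 19 peaks rested on 13 to 29 fragments, with a median of 17. At equal list length, whether the ties were dropped or kept, Map3k8, Map2k6, Dusp11, Dusp12 and Dusp23 still had a peak in oxLDL WT alone, and Map4k4, Mapk9, Dusp6 and Dusp7 had one in oxLDL KO alone. The place of Map2k1, Map3k6, Mapkapk3 and Dusp18 depended on the ties.

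Peaks were then matched across lists by their overlap. Of the 60 oxLDL KO member peaks, 39 shared at least 1 bp with a peak of oxLDL WT (65.0%, Wilson 52.4 to 75.8), and of the 101 oxLDL WT member peaks, 36 overlapped an oxLDL KO peak (35.6%, 27.0 to 45.4). Over all peaks within 20 kb of any gene the shares were 61.4% in oxLDL KO and 28.0% in oxLDL WT, so the members lay near the rest of the lists. Joined across the 4 lists, the member peaks formed 123 separate sites, of which 36 held peaks of both oxLDL lists, 21 an oxLDL KO peak alone and 65 an oxLDL WT peak alone. The remaining site was in WT alone. Matched sites were found at 25 members, against 14% of all protein-coding genes. Of these members, 18 had 1 matched site, 4 had 2, Dusp1 and Dusp4 had 3 each, and Map3k14 had 4. Matched member peaks rested on a median of 18 fragments in oxLDL KO and 20 in oxLDL WT, and unmatched ones on 16 and 17. Of the 21 unmatched oxLDL KO peaks, 6 had the nearest oxLDL WT summit within 1 kb, as did 9 of the 65 unmatched oxLDL WT peaks for oxLDL KO summits.

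**Figure D1:**
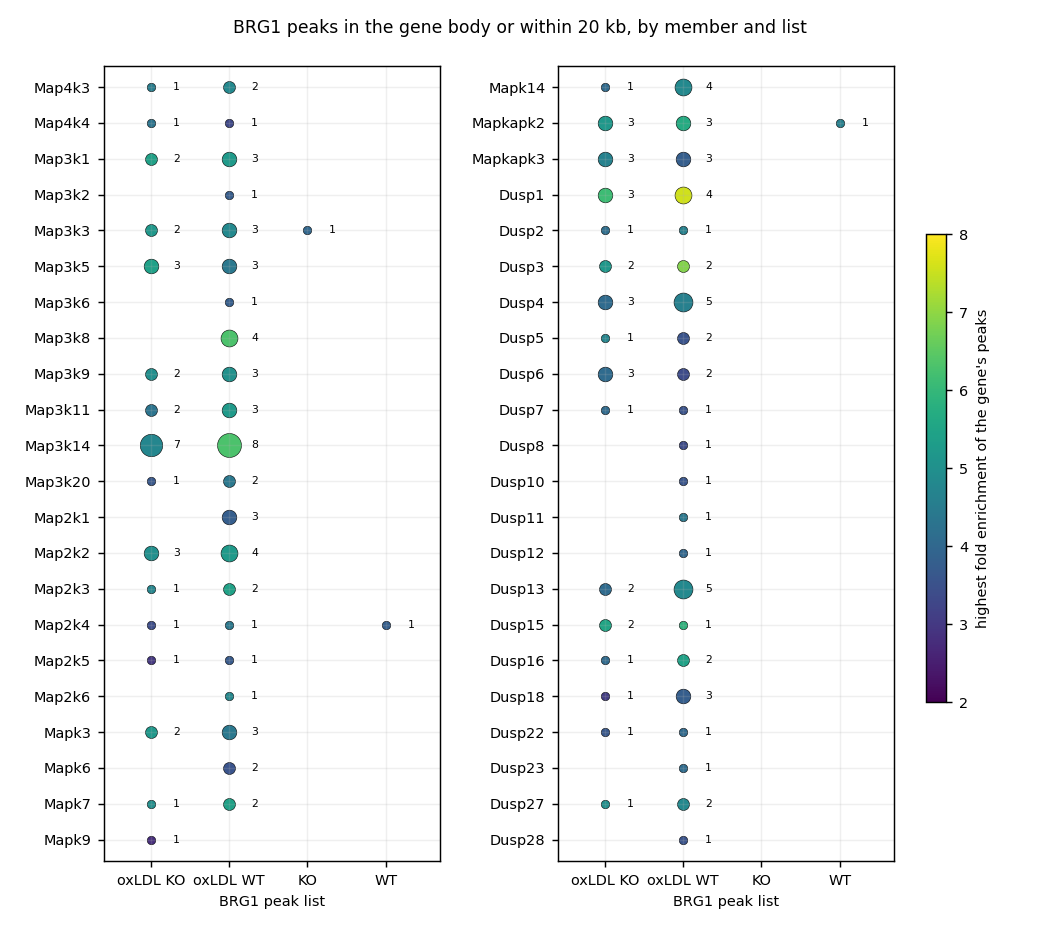
Number of BRG1 peaks in the body or within 20 kb of 44 members with a peak, by list (columns) and gene (rows, by tier). The number beside a dot and its area give the peaks, and its colour gives the highest fold enrichment in that list. Map3k14 has the most peaks, 7 in oxLDL KO and 8 in oxLDL WT, and the KO and WT columns hold 3 dots in all.

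Fold enrichment is the authors' ratio of a summit's pileup to its local background, and values of different lists are set side by side here without being compared, since each list has its own background. The fragments at each summit were recovered from that ratio and the p-value. Member peaks spanned fold enrichments of 2.71 to 6.11 in oxLDL KO (median 4.07, 12 to 26 fragments) and 2.45 to 7.56 in oxLDL WT (median 3.78, 13 to 35 fragments). Of the member peaks, 45 of 60 in oxLDL KO and 75 of 101 in oxLDL WT sat at the lowest background of their list, 3.42 and 3.76 fragments. Of all peaks, 64.7% in oxLDL KO and 72.8% in oxLDL WT sat at this lowest background. There the fold enrichment is set by a whole number of fragments, so many peaks share a value such as 4.07 in oxLDL KO (17 fragments) or 3.57 in oxLDL WT (16 fragments). At that background the lowest pileup listed was 12 fragments in oxLDL KO, 12 in oxLDL WT, 15 in KO and 12 in WT. A member with no peak in a list may still have had fewer fragments than this, which a peak list does not show. No member peak lay in a region of high local background (over 5 times the lowest of its list). Such peaks were rare in the oxLDL lists, 83 of 4668 in oxLDL KO and 58 of 9907 in oxLDL WT. Their absence is thus not particular to the members.

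**Figure D2:**
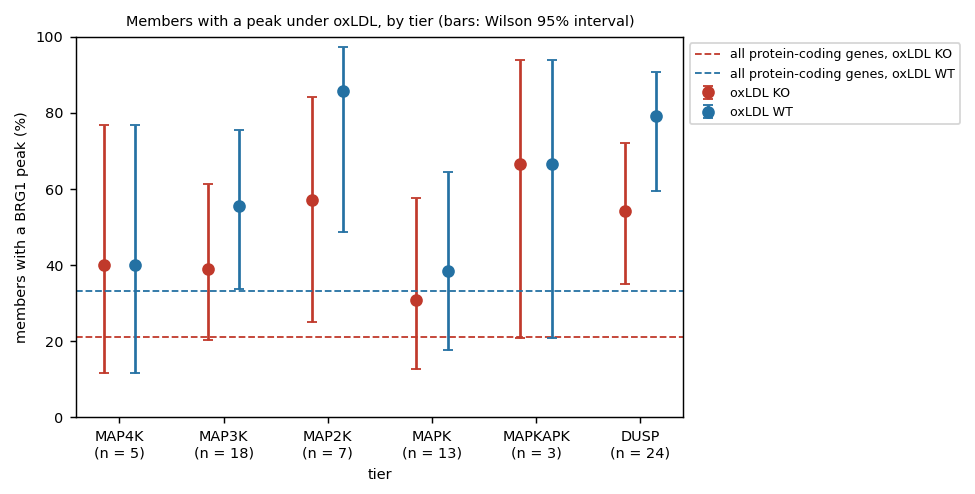
Share of the members of each tier with a BRG1 peak, in percent, for oxLDL KO (red, left) and oxLDL WT (blue, right), with Wilson 95% intervals that cover counting error only. Dashed lines give the share of all protein-coding genes, 21.1% in oxLDL KO and 33.2% in oxLDL WT. DUSP and MAP2K genes in both lists, and MAP3K genes in oxLDL WT, have intervals above the line of the same list. The other intervals span their line. Peaks are counted in the body or within 20 kb, and the order of tiers changes with the gene body alone.

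By the 20 kb rule, the tiers differed in how many members carried a peak, within wide intervals. MAP2K genes had 4 of 7 in oxLDL KO and 6 of 7 in oxLDL WT, and DUSP genes 13 of 24 (54.2%, interval 35.1 to 72.1) and 19 of 24 (79.2%, 59.5 to 90.8). MAPKAPK genes had 2 of 3 in both. MAP3K genes had 7 of 18 in oxLDL KO (38.9%, 20.3 to 61.4) and 10 of 18 in oxLDL WT (55.6%, 33.7 to 75.4). The MAP kinases themselves had the lowest share in both lists, 4 of 13 in oxLDL KO (30.8%, 12.7 to 57.6) and 5 of 13 in oxLDL WT (38.5%, 17.7 to 64.5), and their intervals overlapped those of every other tier in each list. MAP4K genes had 2 of 5 in both. With the gene body alone, DUSP genes had 7 of 24 in oxLDL KO and 11 of 24 in oxLDL WT. MAP2K genes then had 2 of 7 and 4 of 7, and MAP3K genes 7 of 18 and 10 of 18. The order of these tiers thus depended on the window. With the gene body alone the share of all genes was not counted, so these counts cannot be set against it. No peak of any list lay on chromosome X, so the 3 members there (Map3k15, Dusp9 and Dusp21) had none.

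Among the MAP4K genes, Map4k3 and Map4k4 had peaks and Map4k1, Map4k2 and Map4k5 had none. Map4k3 encodes the kinase GLK (chromosome 17, 80580513 to 80728806). A peak at its start had a fold enrichment of 4.53 on 19 fragments in oxLDL KO and overlapped one of 4.83 on 22 fragments in oxLDL WT. Both summits lay downstream of the annotated start, by 394 bp in oxLDL KO and 539 bp in oxLDL WT, and both peaks reached over the start itself. Map4k3 also had a low oxLDL WT peak (2.94, 13 fragments) 16285 bp outside its body and inside the gene Cdkl4. Map4k4, which encodes the kinase HGK, had unmatched peaks in both lists, on 18 fragments in oxLDL KO and 19 in oxLDL WT, with summits 17270 bp apart.

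Starts covered by a peak in both oxLDL lists were found at Map4k3 and Map3k5 among the 55 members with a promoter in the RefSeq table used here. The 250 bases upstream of these starts are shown because they lie under or beside peaks of both genotypes. The Map4k3 promoter is chr17:80728026-80728275 on the minus strand and the Map3k5 promoter is chr10:19934276-19934525 on the plus strand of GRCm38.p6. Each is written 5′ to 3′ and ends at the base before the start. Capitals mark GC boxes (GGGCGG on either strand, the core of Sp1 sites) and, in Map3k5, the core GAGGAA of PU.1 sites. The GC boxes of Map4k3 overlap each other in places.
Map4k3: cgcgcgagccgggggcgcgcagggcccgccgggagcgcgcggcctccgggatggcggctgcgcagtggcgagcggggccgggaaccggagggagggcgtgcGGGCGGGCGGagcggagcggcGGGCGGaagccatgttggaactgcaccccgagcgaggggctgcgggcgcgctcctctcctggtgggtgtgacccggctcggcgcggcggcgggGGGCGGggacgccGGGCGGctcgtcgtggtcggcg
Map3k5: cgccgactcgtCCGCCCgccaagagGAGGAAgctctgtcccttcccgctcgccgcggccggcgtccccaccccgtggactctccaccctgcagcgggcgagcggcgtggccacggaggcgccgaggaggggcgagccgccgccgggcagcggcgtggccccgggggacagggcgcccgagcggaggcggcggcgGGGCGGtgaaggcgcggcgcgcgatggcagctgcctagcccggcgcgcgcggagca
Of these 250 bases, the oxLDL KO peak covered 107 at Map4k3 and 182 at Map3k5, and the oxLDL WT peak covered 34 and 250. The Map4k3 stretch holds 5 GC boxes and no PU.1 core, and the Map3k5 stretch holds 2 GC boxes and 1 PU.1 core. Their GC content was 82.4% and 80.8%, where the median over all protein-coding starts was 55.6%. A match of letters is a description and not a binding site.

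The MAP3K tier held the member with the most BRG1 peaks. Map3k14 (chromosome 11, 103219764 to 103267401) encodes NIK, the kinase that starts non-canonical NF-kB signalling, and had 7 peaks in oxLDL KO and 8 in oxLDL WT. Of its 9 separate sites, 4 held peaks of both lists. The highest was inside the gene, with 4.75 on 20 fragments in oxLDL KO and 6.30 on 29 fragments in oxLDL WT. Another matched site inside the gene had oxLDL KO peaks of 3.17 and 3.42 that both overlapped an oxLDL WT peak of 5.25, and the summit of the second lay 938 bp from the oxLDL WT summit, outside that peak. A further matched site ran over 3147 bp in oxLDL WT (4.20, 19 fragments), the widest peak of that list, and held oxLDL KO peaks of 248 and 441 bp, both of 3.85. The site upstream of the gene, 2387 bp from the start in oxLDL KO and 2342 bp in oxLDL WT, had 4.53 in oxLDL KO and 4.41 in oxLDL WT. Near the start, a peak of 2.75 on 18 fragments, with its summit 179 bp downstream, was in oxLDL WT alone. Both genotypes thus had several peaks along the same stretch of this gene.

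Map3k8 (chromosome 18, 4331325 to 4352953) differed from Map3k14 in having peaks in one genotype. It encodes TPL2, the MAP3K that links Toll-like receptors to ERK in macrophages. The oxLDL WT list had 4 peaks there, of 3.42, 5.04, 2.66 and 6.30, and the oxLDL KO list had none. The highest rested on 29 fragments and lay 159 bp outside one end of the gene, above 98.0% of the fold enrichments of its list. The nearest oxLDL KO summit was 48594 bp from this highest peak, 47531 bp from the peak of 2.66 and 32000 bp from that of 5.04. It was 9901 bp from the peak of 3.42, which itself lay 16906 bp outside the gene. The lack of an oxLDL KO peak at Map3k8 thus holds for the window used here, and wider windows were not tested.

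Several other MAP3K genes had peaks at a start or inside the gene in both genotypes. Map3k5 (chromosome 10, 19934101 to 20142750) encodes ASK1, a kinase activated by oxidative stress. Its peak over the start had 5.42 on 24 fragments in oxLDL KO and 4.22 on 21 fragments in oxLDL WT. Map3k5 had 2 further peaks in each list, none of them matched, including one of 4.41 and 1502 bp width in oxLDL WT. Map3k1 (chromosome 13, 111746428 to 111818269), which encodes MEKK1, had its highest peaks inside the gene, 5.43 on 23 fragments in oxLDL KO and 5.25 on 24 fragments in oxLDL WT. These lay 498 bp apart by their summits and did not overlap, while a peak nearer the start was matched (4.07 in oxLDL KO and 2.64 in oxLDL WT).

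The mixed-lineage kinase genes Map3k9 and Map3k11 each had peaks in both lists, and Map3k10 and Map3k21 had none. Map3k9 (chromosome 12, 81714950 to 81781170) had a matched peak of 4.97 in oxLDL KO and 5.01 in oxLDL WT, with summits 55 bp apart. Map3k11 (chromosome 19, 5688411 to 5702865) had a matched site of 4.30 on 18 fragments in oxLDL KO and 5.25 on 24 fragments in oxLDL WT, and another near its start of 3.90 and 3.03. Map3k20, which encodes the ribotoxic stress kinase ZAK, had a matched peak near its start of 3.62 in oxLDL KO and 2.97 in oxLDL WT. Map3k2 (3.75, near a gene end) and Map3k6 (3.78, inside the gene) had a peak in oxLDL WT alone. No list had a peak at Map3k4, Map3k12, Map3k13, Map3k19 or Map3k7, the last of which encodes TAK1, the kinase that acts on both NF-kB and MAP kinases.

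Of the MAP2K genes for the p38 and JNK arms, Map2k3 and Map2k4 had a matched peak. Map2k3 (chromosome 11, 60932054 to 60952811), which encodes the p38 activator MKK3, had a matched peak inside the gene, 3915 bp downstream of the start in oxLDL KO and 3594 bp in oxLDL WT. It had 4.75 on 20 fragments in oxLDL KO and 5.46 on 25 fragments in oxLDL WT, and a peak near the start (3.09) was in oxLDL WT alone. Map2k4 (chromosome 11, 65688244 to 65788359), which encodes the JNK activator MKK4, had a matched peak near its start of 3.39 in oxLDL KO and 4.41 in oxLDL WT, which WT also had. Map2k6, the other p38 activator gene, had a peak of 4.83 on 22 fragments in oxLDL WT alone. Map2k7 had none.

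In the ERK arm, Map2k2 had 1 matched site. Map2k1, which encodes MEK1, had 3 peaks in oxLDL WT (3.78, 3.78 and 2.94) and none in oxLDL KO. Map2k2, which encodes MEK2 (chromosome 10, 81105913 to 81124697), had 3 peaks in oxLDL KO, the highest of 4.98, and 4 in oxLDL WT, the highest of 5.25, all of them outside its body. Of these, 2 in oxLDL KO and 3 in oxLDL WT lay inside the neighbouring gene Zbtb7a, the matched site (2.89 in oxLDL KO and 2.95 in oxLDL WT) among them. Map2k5, which encodes the ERK5 activator MEK5, had unmatched peaks of 2.94 in oxLDL KO and 3.69 in oxLDL WT, both outside its body.

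Among the MAP kinases, those described here with a peak were Mapk3, Mapk6, Mapk7, Mapk9 and Mapk14. Mapk3 (chromosome 7, 126759626 to 126765816), which encodes ERK1, had matched peaks on each side of its body. The one below it had 4.53 in oxLDL KO and 4.41 in oxLDL WT, and the one above it had 5.20 and 3.78 and lay inside the gene Ypel3. A peak inside Mapk3 itself (4.20, 19 fragments) was in oxLDL WT alone. Mapk7, which encodes ERK5, had a matched peak of 4.96 in oxLDL KO and 5.42 in oxLDL WT, 19545 and 19482 bp outside its body and nearer to the gene Rnf112.

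The p38 and JNK genes had few peaks. Mapk14 (chromosome 17, 28691342 to 28748405), which encodes p38 alpha, the main p38 of macrophages, had 1 peak in oxLDL KO (4.07, 17 fragments) and 4 in oxLDL WT, of which the highest had 4.83 on 22 fragments. None of them overlapped, although the oxLDL KO summit lay 584 bp from an oxLDL WT one. Mapk9 (chromosome 11, 49846728 to 49886421) had its oxLDL KO peak 277 bp downstream of the start, with 2.78 on 19 fragments over a background of 6.19. Mapk6, which encodes ERK3, had peaks of 3.57 and 2.75 in oxLDL WT alone. The other p38 genes (Mapk11, Mapk12, Mapk13), the other JNK genes (Mapk8, Mapk10), Mapk4 and Mapk15 had none in any list.

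Of the MAPKAPK genes, Mapkapk2 and Mapkapk3 had peaks in both genotypes. Mapkapk2 (chromosome 1, 131053700 to 131097871) encodes MK2, which stabilises cytokine mRNAs. Upstream of its start by 12881 bp in oxLDL KO and 12887 bp in oxLDL WT stood a matched peak of 5.20 on 22 fragments in oxLDL KO and 5.67 on 26 fragments in oxLDL WT. A second matched peak, inside the gene, had 3.85 in oxLDL KO and 3.57 in oxLDL WT. Mapkapk3 (chromosome 9, 107254927 to 107289877), which encodes MK3, had 3 peaks in each list, all inside the gene. The matched one had 4.67 in oxLDL KO and 3.26 in oxLDL WT. Mapkapk5 had none.

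**Figure D3:**
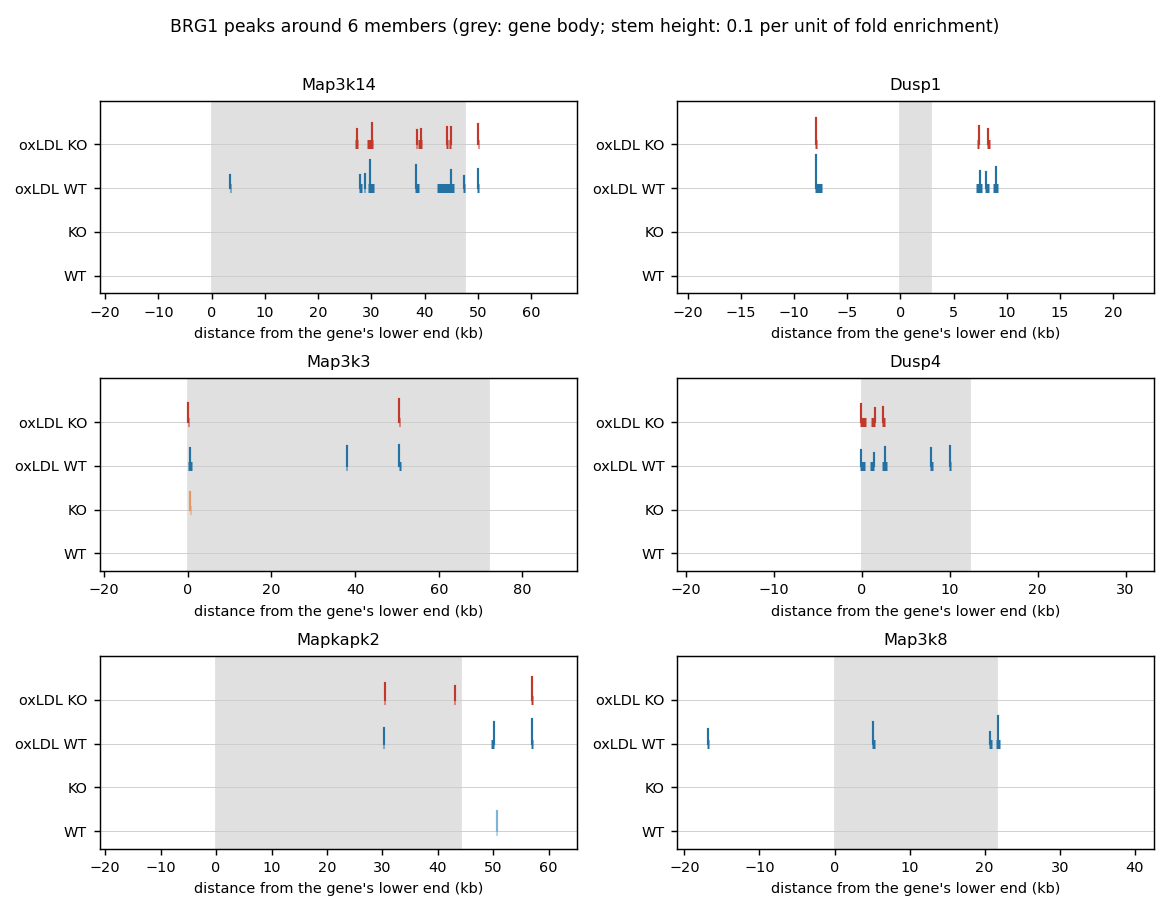
Position of BRG1 peaks around 6 members, as distance in kb from the end of the gene with the lower coordinate. Rows are oxLDL KO, oxLDL WT, KO and WT from top to bottom, thick bars are peaks at their true width, and stems mark summits with a height of 0.1 row per unit of fold enrichment. Map3k14, Dusp1 and Dusp4 have several sites in both oxLDL rows, and Map3k8 has its 4 peaks in oxLDL WT alone.

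The MKP genes carried more peaks per gene than the atypical DUSP genes. Of the 10 MKP genes, 7 had a peak in oxLDL KO and 9 in oxLDL WT, and the one without, Dusp9, lies on chromosome X. Of the 14 atypical DUSP genes, 6 had one in oxLDL KO and 10 in oxLDL WT. Peaks numbered 13 in oxLDL KO and 19 in oxLDL WT at the MKP genes, and 9 and 18 at the atypical genes. A gene-end peak, with its summit within 1 kb of either end, was found at 4 of 10 MKP genes in oxLDL KO and 6 in oxLDL WT, and at 1 and 5 of 14 atypical genes. These groups are small and the difference between them was not tested.

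All 4 genes of the nuclear, inducible MKPs (Dusp1, Dusp2, Dusp4 and Dusp5) had a matched peak. Dusp1 (chromosome 17, 26505591 to 26508472) encodes MKP-1, which dephosphorylates p38 and JNK and limits cytokine production. No summit lay inside the gene or at either end of it. A matched site 7952 bp beyond the body in oxLDL KO and 7925 bp in oxLDL WT, downstream of the gene, had 6.11 on 26 fragments in oxLDL KO and 7.56 on 35 fragments in oxLDL WT. These were the highest member peaks of both lists, above 98.2% and 99.6% of all fold enrichments of their lists. Upstream of the start stood peaks of 4.24 and 3.39 in oxLDL KO, at 4485 and 5403 bp. In oxLDL WT, peaks of 3.99, 3.57 and 4.83 stood at 4642, 5210 and 6100 bp upstream, and the last of these was unmatched. The pattern at Dusp1 was thus of sites on both sides of a short gene and none at its start.

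Dusp4 (chromosome 8, 34807610 to 34819894), which encodes MKP-2, had 3 matched sites near its lower end. The one at that end had 4.07 on 17 fragments in oxLDL KO and 3.57 on 16 fragments in oxLDL WT, with summits 14 bp apart. The next ones inward rested on 17 and 14 fragments in oxLDL KO and on 16 and 20 fragments in oxLDL WT. Further inside the gene, peaks of 4.17 and 4.59 were in oxLDL WT alone. Dusp5 (chromosome 19, 53529145 to 53541809), which encodes an ERK phosphatase of the nucleus, had a matched peak of 4.75 in oxLDL KO and 3.57 in oxLDL WT. Its oxLDL KO summit lay 362 bp downstream of the start and its oxLDL WT summit 577 bp downstream. An oxLDL WT peak of 3.47 upstream of the start was unmatched.

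Dusp2 encodes PAC-1, a phosphatase of activated leukocytes, and its start was covered in one genotype alone. The oxLDL WT peak (4.62, 27 fragments) spanned 1165 bp and covered the start, while the overlapping oxLDL KO peak (4.15, 22 fragments) was 525 bp wide and began 66 bp downstream of it. Dusp16, which encodes the JNK phosphatase MKP-7, had the same arrangement at an annotated start (134792628) inside its body (chromosome 6, 134715468 to 134807063). Unlike at Dusp2, this start is not the outer end of the gene, and neither Dusp16 peak there counted as a gene-end peak. Its oxLDL WT peak (5.46, 25 fragments) spanned 1027 bp over the start, and its oxLDL KO peak (4.07, 17 fragments), 243 bp wide, began 108 bp downstream of the start. Widths depend on how far a signal stays above the calling limit, and the median peak was 309 bp wide in oxLDL KO and 368 bp in oxLDL WT. At Dusp16 the peaks differ in extent mostly downstream of the start. The 250 bases upstream of the Dusp2 and Dusp16 starts are shown because the oxLDL WT peaks reach into them and the oxLDL KO peaks do not. They are chr2:127335909-127336158 on the plus strand for Dusp2 and chr6:134792629-134792878 on the minus strand for Dusp16, on GRCm38.p6, with GC boxes and, in Dusp2, an E-box (CACGTG) in capitals. GC boxes of Dusp16 overlap each other in part.
Dusp2: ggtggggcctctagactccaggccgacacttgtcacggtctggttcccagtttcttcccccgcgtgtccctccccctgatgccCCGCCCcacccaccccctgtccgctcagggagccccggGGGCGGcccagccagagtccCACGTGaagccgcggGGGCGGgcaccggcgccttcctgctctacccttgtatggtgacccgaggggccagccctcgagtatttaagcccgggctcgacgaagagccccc
Dusp16: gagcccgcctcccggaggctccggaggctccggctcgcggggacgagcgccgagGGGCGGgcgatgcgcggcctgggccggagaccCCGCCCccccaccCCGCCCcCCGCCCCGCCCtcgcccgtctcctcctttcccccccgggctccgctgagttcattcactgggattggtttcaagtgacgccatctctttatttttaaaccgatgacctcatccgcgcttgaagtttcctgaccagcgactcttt
The Dusp2 stretch holds 3 GC boxes and 1 E-box, and the Dusp16 stretch holds 5 GC boxes. The oxLDL KO peak covered 0 of the 250 bases at both genes, and the oxLDL WT peak covered 250 at Dusp2 and 12 at Dusp16. These members were picked for printing after their values had been seen.

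The cytoplasmic ERK phosphatase genes Dusp6 and Dusp7 had peaks in both lists, mostly unmatched. Dusp6 (chromosome 10, 99263231 to 99267489), which encodes MKP-3, a feedback target of ERK, had 3 peaks in oxLDL KO (3.40, 2.94 and 4.07) and 2 in oxLDL WT (2.94 and 3.36). The matched pair, of 3.40 in oxLDL KO and 2.94 in oxLDL WT, lay upstream of the start, by 490 bp and 875 bp at the summits. The highest oxLDL KO peak lay inside the gene and had no oxLDL WT counterpart. Dusp7 had 4.07 in oxLDL KO, 7067 bp upstream of the start, and 3.55 in oxLDL WT, 580 bp downstream of it. Of the genes for JNK and p38 phosphatases, Dusp8 (3.36) and Dusp10 (3.62) had a peak in oxLDL WT alone.

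Among the atypical DUSP genes, Dusp3 had the highest peaks inside a body. Dusp3 (chromosome 11, 101971141 to 101987013), which encodes VHR, had a matched site of 5.20 on 22 fragments in oxLDL KO and 6.88 on 32 fragments in oxLDL WT. This site lay at the far end of the gene, 12211 bp downstream of the start in oxLDL KO and 12180 bp in oxLDL WT, and a lower oxLDL KO peak of 3.85 fell under the same oxLDL WT peak of 1071 bp. Dusp15 had a matched peak of 5.52 in oxLDL KO and 5.88 in oxLDL WT, with summits 41 bp apart, but it lay 13699 and 13658 bp outside the body and nearer to Mylk2. Dusp27 had one of 4.98 and 4.83, inside the neighbouring gene Gpa33. The rule takes any summit within 20 kb, and a peak inside another gene is not shown to act on the member.

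The remaining atypical genes had lower or unmatched peaks. Dusp13 had 2 peaks in oxLDL KO and 5 in oxLDL WT, of which 2 in oxLDL KO and 3 in oxLDL WT lay inside the gene Samd8, and its peak near the start (4.62) was in oxLDL WT alone. Its matched site, in Samd8, had 4.07 in oxLDL KO and 4.83 in oxLDL WT. Dusp18 (3.07 in oxLDL KO and at most 3.78 in oxLDL WT) had all its peaks inside Slc35e4. Dusp22 had unmatched peaks of 3.62 in oxLDL KO and 4.05 in oxLDL WT, and the oxLDL WT peak lay at its start. Dusp11 (4.41), Dusp12 (3.99), Dusp23 (19 fragments) and Dusp28 (3.57) had a peak in oxLDL WT alone, and Dusp14, Dusp19, Dusp21 and Dusp26 had none in any list. In all, 11 of 60 oxLDL KO and 22 of 101 oxLDL WT member peaks had another protein-coding gene nearer to the summit, and 8 and 18 lay inside another gene.

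Peaks at gene ends were counted separately. A gene-end peak was found at 10 members in oxLDL KO (14.3%, interval 7.95 to 24.3) and 24 in oxLDL WT (34.3%, 24.2 to 46.0), against 8.76% and 14.9% of all protein-coding genes. The ratio of oxLDL KO to oxLDL WT was 0.417 for members and 0.589 for all genes. At equal list length the counts were 10 members in oxLDL KO and 11 in oxLDL WT, with the ties dropped or kept. With −log10 q limited to 5 and above there were 2 and 8. The gene-end share of all genes was not counted at these settings, so these counts cannot be read as particular to the members. Both lists had a gene-end peak at 8 members: Dusp2, Dusp4, Dusp5, Dusp6, Map2k4, Map3k3, Map3k5 and Map3k20. How many of all genes had one in both lists was not counted. Of member peaks, 11 of 60 in oxLDL KO lay at a gene end, 29 elsewhere in the body and 20 outside, and in oxLDL WT 26, 43 and 32 of 101. The gene-end share of member peaks was 18.3% in oxLDL KO (interval 10.6 to 29.9) and 25.7% in oxLDL WT (18.2 to 35.0). Of all peaks within 20 kb of any gene, 43.9% and 36.5% lay at a gene end. That share counts an end of any gene and not of a member alone, so the shares are not strictly alike.

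Summits near a start lay mostly downstream of it. For the 55 members with 71 annotated starts in the RefSeq promoter table, 11 of 13 oxLDL KO summits within 1 kb of a start were downstream (84.6%, interval 57.8 to 95.7), at a median of +311 bp. In oxLDL WT, 23 of 29 were downstream (79.3%, 61.6 to 90.2), at a median of +249 bp. All protein-coding starts gave 82.7% of 1730 summits in oxLDL KO and 76.0% of 2989 in oxLDL WT, with medians of +271 and +226 bp, so the members were like other genes in this. The median GC content of the 250 bases upstream was 63.8% for the 26 members with a summit within 1 kb of a start in either oxLDL list and 63.2% for the other 29. Both values were above the 55.6% of all protein-coding starts.

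**Figure D4:**
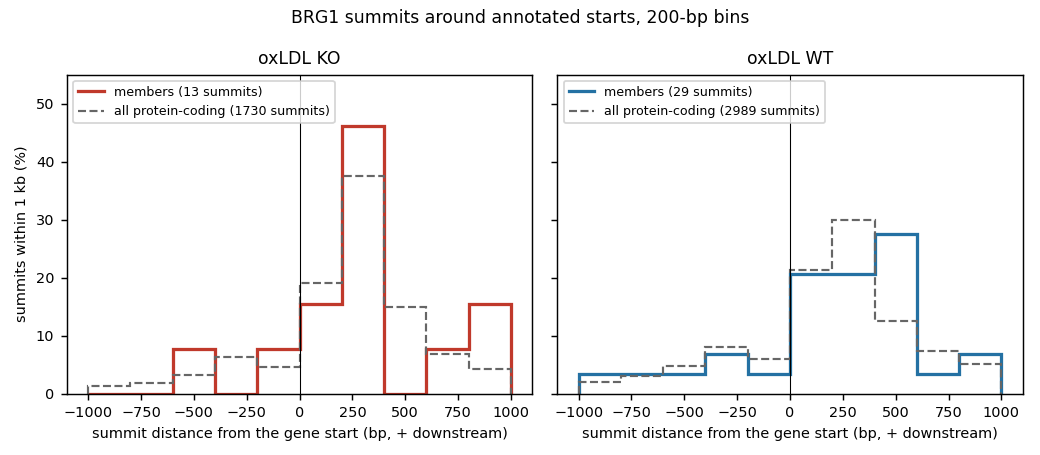
Distance of BRG1 summits from annotated starts, in bp with positive values downstream, as the percent of summits within 1 kb in bins of 200 bp, for oxLDL KO (left) and oxLDL WT (right). Solid lines are the members (13 and 29 summits) and dashed lines all protein-coding genes (1730 and 2989 summits). Most of each line lies to the right of 0, 84.6% and 79.3% for the members.

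Short motifs were searched on both strands of the 250 bases before each start. The AP-1 site TGANTCA was found at 4 of 71 member starts (5.63%) and 6.13% of all protein-coding starts, and the E-box CACGTG at 8.45% and 6.63%. The PU.1 core GAGGAA was found at 14.1% of member starts and 22.2% of all, and the GC box GGGCGG at 54.9% and 42.6%. The CRE TGACGTCA, the site of CREB and ATF factors, was found at 3 member starts (Dusp1, Dusp8 and Mapk10; 4.23%) and 1.92% of all. These shares describe letters in a window and say nothing of the factors.

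In untreated cells almost no member had a peak. The KO list had a peak at 1 member, Map3k3, and the WT list at 2, Map2k4 and Mapkapk2, against 0.553% and 1.19% of all protein-coding genes. Map3k3 (chromosome 11, 106084587 to 106156656) encodes MEKK3, which acts in Toll-like receptor signalling. The KO peak there had 3.99 on 19 fragments, 637 bp downstream of the start. It overlapped the oxLDL WT peak near the start (4.17, 19 fragments) but not the oxLDL KO peak there (4.30, 18 fragments), which lay nearer the start and overlapped the same oxLDL WT peak. A matched peak far inside Map3k3 had 5.20 in oxLDL KO and 4.83 in oxLDL WT, and was in neither untreated list.

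The WT peaks were near a start and outside a gene. At Map2k4 the WT peak had 3.78 on 13 fragments and overlapped the peaks of both oxLDL lists described above. At Mapkapk2 it had 4.59 on 16 fragments, 6506 bp upstream of the start, and overlapped none, although an oxLDL WT peak of 5.04 had its summit 5946 bp upstream. Of the 70 members, oxLDL KO had a peak at 32 against 1 in KO, and oxLDL WT at 44 against 2 in WT. The untreated lists hold 139 peaks in KO and 237 in WT over the whole genome, and their lowest −log10 p, 5.33 in KO and 5.13 in WT, is above the 3.96 of oxLDL KO and 3.67 of oxLDL WT. With the limit of 5.33 set in all lists, 29 members kept a peak in oxLDL KO and 44 in oxLDL WT. The share of all genes at this limit was not counted, so these counts cannot be read as particular to the members.

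Other genes of the same pathways came from a list of 60 RAS, RAF, adaptor, scaffold, downstream kinase, transcription factor and phosphatase genes outside the symbol rule. Their shares were similar to the members' by the 20 kb rule, with all listed peaks and at equal list length. Of these genes, 28 had a peak in oxLDL KO (46.7%) and 38 in oxLDL WT (63.3%), 26 of them in both. The counts at equal list length were 28 in oxLDL KO and 28 to 31 in oxLDL WT. The shares were less alike at other settings. At a −log10 q of at least 5, 6 of the 60 genes had a peak in oxLDL KO and 17 in oxLDL WT, against 16 and 29 of the 70 members. A gene-end peak was found at 17 and 18 of the 60 genes, against 10 and 24 of the 70 members. The highest in oxLDL KO were Tab2, which encodes a partner of TAK1 (5.63), the RAF scaffold gene Ksr1 (5.07), the MAP4K-like kinase gene Mink1 (4.98), the ETS factor gene Elk3 (4.98), Mknk2 (4.75) and the RAS inhibitor gene Rasa2 (4.53). The highest in oxLDL WT were Mknk2 (7.14) and Mknk1 (6.93), which encode kinases of the translation factor eIF4E, Mef2c (6.51), a transcription factor gene downstream of p38, Rps6ka2 (5.67), which encodes an RSK kinase, and the MAP kinase phosphatase gene Ptpn7 (5.43), followed by Ksr1 and Rps6ka1 at 5.25. The adaptor gene Grb2 was the one with a peak in WT (4.23), and none had one in KO.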

How the data were processed

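BRG1 ChIP-seq of primary bone marrow-derived macrophages was analysed from 4 peak lists, 1 per library. An input library was not analysed here. The labels' protocols name enzymatic digestion of chromatin and paired-end reads. The submitters' processing notes list the genome mm10 and, with no settings, MACS3, Bowtie2, Trimmomatic 0.33 and bcl2fastq 2.17. They do not say whether the input was the control for peak calling. The authors deposited for each peak a score (−log10 q scaled by 10 and made whole), a fold enrichment (ratio of pileup to local background), −log10 p and −log10 q values and the summit.

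Groups came from the sample titles. Pileup and background were recovered by solving (pileup + 1)/(background + 1) for the fold enrichment together with the Poisson tail for the p-value. The pileup came out whole, to a tolerance of 2% of 1 pileup step on the −log10 p scale, for 99.9% of peaks in oxLDL KO, 99.9% in oxLDL WT, 92.8% in KO and 99.6% in WT. The method was tested on simulated data, which cannot show that the authors' values follow this formula. Read totals are not known from peak lists, and the lowest background of each list (3.42, 3.76, 3.84 and 2.70 fragments in oxLDL KO, oxLDL WT, KO and WT) stands for its depth. Gene positions came from RefSeq on GRCm38.p6 and starts from its promoter table, which held 55 of the 70 members. For the other 15 no strand was used, and a gene end can be either end. Members without an entry include Map4k4, Map3k2, Map3k8, Map3k15, Map3k19, Mapk3, Mapk4, Mapk15, Dusp4, Dusp9, Dusp15, Dusp19, Dusp21 and Dusp26.

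The rule for named members took those with a peak in an untreated list, those with matched peaks in both oxLDL lists, the 3 members of each tier with the highest fold enrichment in each oxLDL list, and those with 5 or more peaks in a list. Values of members outside this rule are also given where a group is described, and these were chosen after their values were seen. The values of 1 member are not reported here. Printed promoters were those with a start covered in both oxLDL lists, and 2 were added after seeing the data. Members and lists were chosen with earlier results of these data known. Alternatives were the window (gene body, 5 kb, gene ends within 1 kb), limits on q and p, equal list length, high background, nearest gene and the overlap rule. Scripts used Python 3.11.15, numpy 2.4.6, scipy 1.17.1, pandas 2.3.3 and matplotlib 3.10.9.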

Additional observations from a re-analysis of the deposited data

Results flagged for a closer look

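The number of BRG1 peaks at Map3k3, the MEKK3 gene, differed between genotypes in opposite directions with and without oxLDL. Without oxLDL, KO had 1 peak and WT had 0, a difference of 1. With oxLDL, oxLDL KO had 2 peaks and oxLDL WT had 3, a difference of -1. Each value is 1 library, and the difference between these differences was not tested.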

How the results depend on the processing

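No paired analysis was possible because each group is 1 library, and no library could be left out. The values of the main setting, before any alternative, were 32 members with a peak in oxLDL KO, 44 in oxLDL WT, 1 in KO and 2 in WT. Member peaks numbered 60, 101, 1 and 2. The shared −log10 p limit, the removal of high-background peaks and the assignment to the nearest gene alone changed no count by over 1.5 times and moved no share out of its interval, and requiring an overlap of 0.5 of the shorter peak moved neither share. At equal list length oxLDL KO had more member peaks than oxLDL WT, 60 against 49 (48 with tied peaks dropped and 57 with them kept), the opposite order to the full lists.

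At a −log10 q of at least 5, members with a peak numbered 16 in oxLDL KO, 29 in oxLDL WT, 14 in both, 0 in KO and 0 in WT, and member peaks 16, 39, 0 and 0. By tier the counts that moved were DUSP 5 in oxLDL KO and 10 in oxLDL WT, MAP2K 2 in oxLDL KO, MAP4K 0 and 1, MAPK 2 in oxLDL KO and MAPKAPK 1 in oxLDL WT. Other pathway genes numbered 6 and 17, and members with a gene-end peak 2 and 8, the last of these an alternative chosen after seeing the data.

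With summits within 1 kb of a gene end, members numbered 10 in oxLDL KO, 24 in oxLDL WT, 8 in both and 1 in WT, and member peaks 11, 26 and 1. By tier these were DUSP 5 and 11, MAP2K 1 and 2, MAP3K 3 in oxLDL KO, MAP4K 0 and 1, MAPK 1 and 3 and MAPKAPK 0 and 0. Other pathway genes numbered 17 and 18, and 81.8% of oxLDL KO member peaks were overlapped. With the gene body alone, member peaks numbered 38 in oxLDL KO and 64 in oxLDL WT, members with a peak in both lists 20, DUSP members 7 and 11, MAP2K 2 and MAPK 2 in oxLDL KO, and WT had 1 member and 1 peak. With 5 kb on each side, DUSP members numbered 8 and MAPK members 2 in oxLDL KO, and WT had 1 member and 1 peak.

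At equal list length, oxLDL WT had 49 member peaks, 1 MAP4K and 1 MAPKAPK member (2 MAPKAPK members with the ties kept), and 11 members with a gene-end peak, an alternative chosen after seeing the data. The overlapped share was then 45.0% of oxLDL KO and 49.0% of oxLDL WT member peaks, 45.0% and 50.0% with the ties dropped and 46.7% and 43.9% with them kept. Both treatments of the ties were chosen after seeing the data, and neither moved the 1 MAP4K member or the 11 members with a gene-end peak. With summits within 200 bp as the match, it was 46.7% in oxLDL KO. A median member peak rests on 17 fragments in oxLDL KO and 18 in oxLDL WT, and read totals are not known from peak lists.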
